A study of Homo sapiens with 6 samples.

Results

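MT-ATP8 and MT-ATP6 encode the subunits of ATP synthase that are made from the mitochondrial genome, and both were chosen by gene name. They are 2 of the 1877 genes in the authors' table. RNA of LP-1, a human multiple myeloma cell line, was sequenced from 3 libraries of cells depleted of RNF5 with a short hairpin RNA (the knockdown) and 3 libraries of cells with a non-target control (the control). Both groups grew in RPMI-1640 with 15% serum. RNF5 is a membrane-anchored ubiquitin ligase. It is named in the study's title together with DNAJA1, a co-chaperone, sensitivity to selinexor and the function of mitochondria. No source used here says how many hairpins were tried or that libraries came from separate cultures. The p-values therefore set the group difference only against the variation among libraries, which may be technical.

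ATP synthase uses the proton gradient across the inner mitochondrial membrane to make ATP. The MT-ATP6 protein, subunit a, forms the channel through which protons reach the rotating ring, and the MT-ATP8 protein is a small subunit of the stator that holds the complex in place. All other subunits are encoded in the nucleus and imported. The strands of mitochondrial DNA are transcribed as long precursors that are cut mostly at tRNAs. MT-ATP8 and MT-ATP6 are not separated from each other and stay together on 1 mature mRNA, and MT-CO3, a subunit of cytochrome c oxidase, follows MT-ATP6 on the same precursor with no tRNA between them.

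The open reading frames overlap, and reads within the shared bases cannot be assigned to one gene alone. In GENCODE 29 on GRCh38, MT-ATP8 (ENSG00000228253, plus strand) lies at chrM:8366-8572 and MT-ATP6 (ENSG00000198899, plus strand) at chrM:8527-9207, each as 1 exon that is coding throughout. MT-ATP8 is 207 bases long and MT-ATP6 681 bases. They share 46 bases, which are 22.2% of MT-ATP8 and 6.75% of MT-ATP6. The sequences below are the GENCODE transcripts, with the shared bases in capitals. MT-ATP6 is shown from base 1 to base 120.
MT-ATP8: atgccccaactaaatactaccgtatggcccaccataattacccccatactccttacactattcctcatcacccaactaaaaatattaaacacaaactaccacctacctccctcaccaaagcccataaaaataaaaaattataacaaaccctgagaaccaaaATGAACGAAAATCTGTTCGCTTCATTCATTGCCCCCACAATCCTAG
MT-ATP6: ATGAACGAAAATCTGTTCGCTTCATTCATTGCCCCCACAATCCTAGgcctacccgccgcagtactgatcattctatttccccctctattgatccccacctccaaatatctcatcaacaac
The nuclear copy MTATP6P1 (ENSG00000248527, chr1:633696-634376 in GRCh38, plus strand) is shown next because it is also among the listed genes and close enough in sequence to share reads. It is given from base 1 to base 120, with the base that differs from MT-ATP6 in capitals (G19A, counted from 1 at the first base of MT-ATP6, MT-ATP6 base first).
MTATP6P1: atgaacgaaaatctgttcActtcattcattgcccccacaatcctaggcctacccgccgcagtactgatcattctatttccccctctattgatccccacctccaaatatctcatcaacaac
Over all 681 bases MTATP6P1 differed from MT-ATP6 at 10 positions (98.5% identity), and the longest identical run was 141 bases. Of the 632 windows of 50 bases in MT-ATP6, 295 (46.7%) occurred unchanged in MTATP6P1. For windows of 100 bases the number was 69 of 582 (11.9%), and for windows of 150 bases it was 0 of 532. Upstream of it, MTATP8P1 differs from MT-ATP8 at 5 of 207 positions and was not among the listed genes. Neither the read length nor the use of strand in counting is stated in the sources used here.

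The values are normalized abundances whose scale is not stated in the sources used here, and the depth of the libraries is unknown. The authors listed only genes that they had called changed, with 924 higher in the knockdown and 953 lower. A result on a listed gene is therefore no independent evidence of a change in that direction, and no value is known for any gene outside the list. The values appear to be scaled by gene length, since the lowest ones fell with length. The 1st percentile of the values above 0 was 0.36 for genes of 300 to 500 bases, 0.07 for 500 to 1000 bases and 0.01 for 4000 bases or more. Levels of different genes are compared on that scale. Whether the authors divided by the full length or by the number of positions a fragment can take is not stated. The choice matters most for the shortest genes, so the level of MT-ATP8 against longer genes is uncertain. RNF5 had 81.35 to 95.40 in the knockdown libraries and 1248 to 1649 in the control libraries. Of 10 plasma cell markers SDC1 was listed, at 35.5 ± 1.16 in the knockdown and 12.1 ± 2.66 in the control (SD, n = 3 each). None of 18 markers of T and NK, myeloid and erythroid or platelet cells was listed, and of 6 fibroblast markers COL1A1 was, below 1 in every library. The list held 6.36% of annotated protein-coding genes, and a gene outside it may still be expressed. These marker counts therefore cannot show the identity or purity of the cells.

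The 3 knockdown values of each member all lay above its 3 control values. MT-ATP8 had 27616.93, 21867.78 and 21351.71 in knockdown libraries 1, 2 and 3, and 9364.93, 10110.42 and 11868.96 in control libraries 1, 2 and 3. Knockdown library 1 was the highest of its group and control library 3 the highest of its own. The mean was 23612 ± 3478 in the knockdown and 10448 ± 1286 in the control (SD, n = 3 each), a 2.26-fold difference. With limma over all genes tested, the log2 fold change was 1.17 (SE 0.14, Benjamini-Hochberg adjusted p = 2.24e-05). Each fold change from limma is on the log2(value + 1) scale.

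MT-ATP6 had 5162.02, 6728.80 and 6386.24 in knockdown libraries 1, 2 and 3, and 2235.56, 1897.24 and 1604.73 in control libraries 1, 2 and 3. Here knockdown library 1 and control library 3 were the lowest of their groups, the reverse of MT-ATP8. The mean was 6092 ± 824 in the knockdown and 1913 ± 316 in the control (SD, n = 3 each), a 3.19-fold difference, with a log2 fold change of 1.67 (SE 0.16, limma adjusted p = 4.98e-06). Of all genes tested, 55.7% were called higher in the knockdown, and 97.7% were called in either direction. All knockdown values lay above all control values in 54.9%, and the groups did not overlap, in either direction, in 95.7%. The median log2 fold change over all genes tested was 0.73. The authors' deposited table gives log2 fold changes of 1.04 for MT-ATP8 and 1.56 for MT-ATP6, with adjusted p-values of 4.42e-05 and 4.97e-36. In bulk RNA a change in the share of cells that carry a transcript and a change in RNA per cell cannot be told apart.

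**Figure D1:**
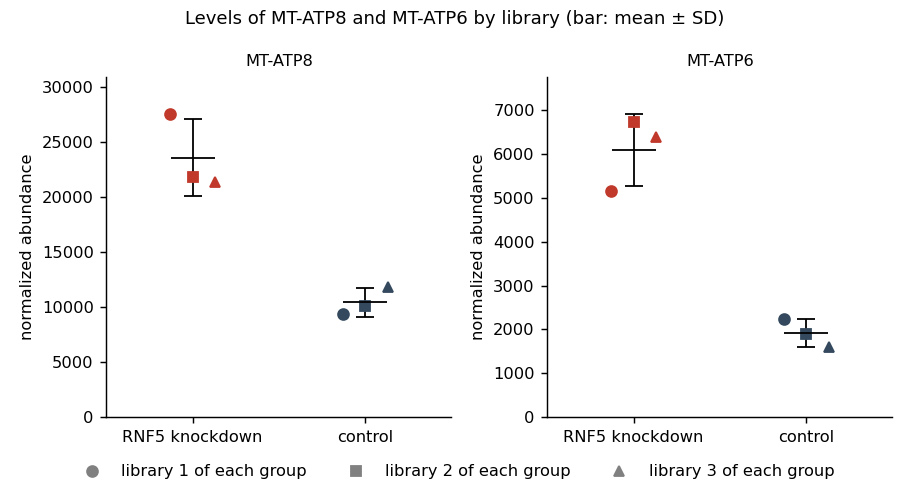
Normalized abundance (linear axis from 0) of MT-ATP8 and MT-ATP6 in the 3 knockdown and 3 control libraries, with points for libraries and bars for mean ± SD. Every knockdown point lies above every control point for both genes, while knockdown library 1 is the highest of its group for MT-ATP8 (27616.93) and the lowest for MT-ATP6 (5162.02).

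The rise of MT-ATP8 was not called after removal of a trend with gene length that itself includes the difference between the groups. Within the listed genes, the difference between the groups was larger for short genes. Its median was 1.24 on the log2 scale over 18 tested genes of 300 to 500 bases and 0.98 over 110 genes of 500 to 1000 bases. It was 0.64 over 229 genes of 1000 to 2000 bases, 0.59 over 439 genes of 2000 to 4000 bases and 0.74 over 389 genes of 4000 bases or more, so it did not fall steadily. With each library centred on its own trend with gene length, MT-ATP8 had a log2 fold change of 0.11 (SE 0.17, limma adjusted p = 0.549) and MT-ATP6 of 1.26 (SE 0.15, limma adjusted p = 8.48e-05). The trend at the length of MT-ATP8 was 1.06 on the log2 scale, knockdown minus control, and rests on few genes. It was fitted on listed genes, all called changed by the authors, with MT-ATP8 among them. Removing it takes out the difference between the groups that it holds at each length, so the step cannot show an effect of length. This limit holds for every value below with the length trend removed. MT-ATP8 was the only tested gene under 300 bases, and 19 tested genes were under 500 bases. The part of gene length in the change of MT-ATP8 was not tested.

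MT-ATP8 held the highest value of any listed gene in all 3 knockdown libraries, a rank that depends on how the values were scaled for its short length. In the 3 control libraries it ranked behind the 16S ribosomal RNA MT-RNR2 alone. MT-ATP6 ranked between 6 and 7 in the knockdown and between 10 and 12 in the control libraries. MT-ATP8 alone made up 23.6%, 17.9% and 18.1% of the summed value of all listed genes in knockdown libraries 1, 2 and 3, and 10.3%, 11.1% and 12.6% in control libraries 1, 2 and 3. Among the 10 listed mRNAs of the mitochondrial genome it was first in each of the 6 libraries, and MT-ATP6 was sixth or seventh. By group mean, the neighbours of MT-ATP6 in the knockdown were MT-ND4 (6294 ± 616) above and MT-CO3 (5970 ± 240) below, and both differed from it by less than its own SD. In the control they were MT-CO3 (2268 ± 75.8) above and MT-ND5 (1615 ± 198) below, and MT-CO3 differed from MT-ATP6 by more than its SD.

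Although both genes sit on the same mRNA, their deposited values were unequal in every library, with the limit on levels of short genes given above. The ratio of MT-ATP8 to MT-ATP6 was 5.35, 3.25 and 3.34 in knockdown libraries 1, 2 and 3, and 4.19, 5.33 and 7.40 in control libraries 1, 2 and 3. The groups overlap, since knockdown library 1 lies above control libraries 1 and 2. The mean ratio was 3.98 ± 1.19 in the knockdown and 5.64 ± 1.63 in the control (SD, n = 3 each). The log2 difference was -0.50, somewhat larger than the SD of the log2 ratio within the groups (0.40 in the knockdown and 0.41 in the control). An exact 2-sided permutation test gave p = 0.3 (adjusted 0.3 over 4 ratios), and 3 against 3 libraries cannot give a p under 0.1. A difference between the groups in this ratio was thus neither shown nor excluded at this number of libraries. Without control library 3 the log2 difference was -0.29, and without knockdown library 1 it was -0.73, where the groups no longer overlapped. With the length trend removed it was -1.15 (exact 2-sided permutation p = 0.1).

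Within each group the members deviated in opposite directions. Taken as the difference from the group mean on the log2 scale, MT-ATP8 deviated by 0.24, -0.10 and -0.14 in knockdown libraries 1, 2 and 3, and by -0.15, -0.04 and 0.19 in control libraries 1, 2 and 3. MT-ATP6 deviated by -0.23, 0.15 and 0.08 in knockdown libraries 1, 2 and 3, and by 0.24, 0.0016 and -0.24 in control libraries 1, 2 and 3. The signs were opposite in 6 of 6 libraries, with the value of MT-ATP6 in control library 2 near 0. As a description over these 6 points, which share their libraries and their group centring, the correlation of the deviations was -0.96.

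Most of the other mitochondrial mRNAs deviated like MT-ATP6. MT-CO1, MT-ND4 and MT-ND5, the longest of the 10 at 1542, 1378 and 1812 bases, had correlations of 0.99 each with MT-ATP6 over the 6 libraries, MT-CYB had 0.87, and MT-ND6, which is short at 525 bases, had 0.73. The correlation with MT-ATP6 was 0.13 for MT-CO3, 0.075 for MT-ND2 and -0.43 for MT-CO2. MT-CO2 has 684 bases, close to the 681 of MT-ATP6, and its correlation with MT-ATP8 was 0.42. The correlations with MT-ATP6 were highest for the longest mRNAs and lowest for MT-ATP8, the shortest (207 bases, -0.96). They did not follow the order of length strictly, since MT-ND6 stood above the longer MT-CO2, MT-CO3 and MT-ND2. The part of length in them was not tested. Over all tested genes the same libraries showed a gradient with length. In knockdown library 1 the median deviation was 0.12 for genes of 300 to 500 bases and -0.09 for genes of 4000 bases or more, and in control library 3 these medians were -0.07 and -0.25. In control library 1 they were 0.11 and 0.21. The part of this gradient in the ratio of the pair was not tested.

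**Figure D2:**
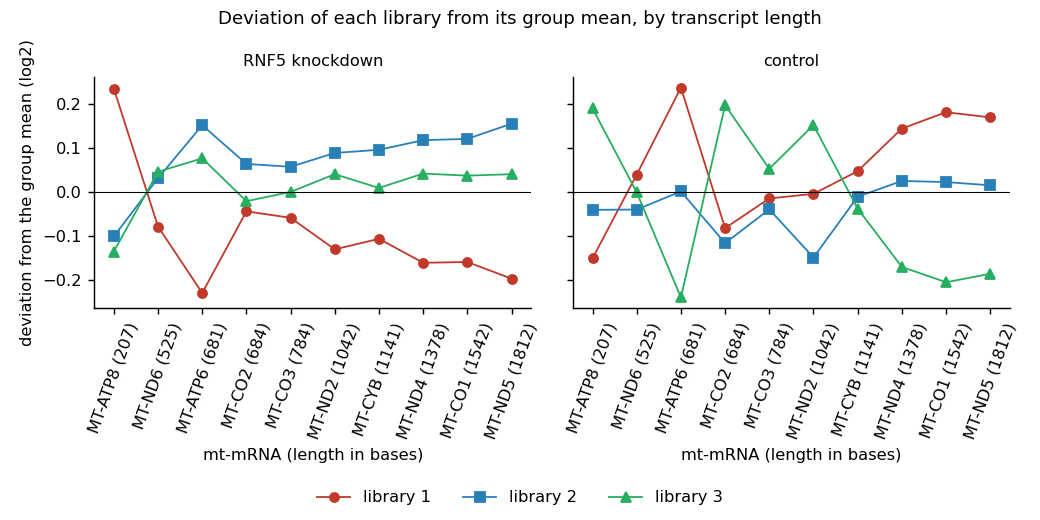
Deviation of each library from its group mean (log2 scale) for the 10 listed mitochondrial mRNAs, ordered by length in bases, with 1 line per library. MT-ATP8 at the left runs opposite to MT-ATP6 in both groups, most clearly in knockdown library 1 (0.24 against -0.23) and control library 3 (0.19 against -0.24).

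The short reading frame of MT-ATP8 leaves few positions for a sequenced fragment. A fragment of 100 bases can lie wholly within MT-ATP8 at 108 positions and within MT-ATP6 at 582. For a fragment of 150 bases the numbers are 58 and 532, and for 200 bases they are 8 and 482. The fragment size is not stated in the sources used here. If the authors scaled by such positions, the value of MT-ATP8 relative to longer genes would be higher than with its full length, and this was not tested. The 2 listed genes shorter than MT-ATP8 were the mitochondrial tRNA gene MT-TA (69 bases) and the ribosomal RNA gene RNA5S14 (119 bases). Both were listed at 0 in all 6 libraries, although the authors' deposited table gives them log2 fold changes of 1.73 and -4.12. MT-ATP8 was the shortest listed gene of known length with a value above 0.

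Against MT-CO3, its neighbour on the precursor, the summed pair overlapped between the groups, and the members went opposite ways. The sum of both members over MT-CO3 was 5.72, 4.60 and 4.65 in knockdown libraries 1, 2 and 3, and 5.17, 5.44 and 5.73 in control libraries 1, 2 and 3. The groups overlap, since knockdown library 1 is above control libraries 1 and 2. The log2 difference was -0.13 (exact 2-sided permutation p = 0.3, adjusted 0.3). It was -0.23 without knockdown library 1, where the groups did not overlap, and -0.08 without knockdown library 2 or without knockdown library 3. With the length trend removed it was -0.73 (exact 2-sided permutation p = 0.1, the smallest value possible). The sum is mostly MT-ATP8, the higher member in every library. Taken alone, MT-ATP8 over MT-CO3 had a log2 difference of -0.22 and MT-ATP6 over MT-CO3 of 0.28, each with overlapping groups. MT-CO3 itself rose by a log2 fold change of 1.40 (SE 0.12, limma adjusted p = 2.83e-06).

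Against the other listed mitochondrial mRNAs the summed value of the pair, which is mostly MT-ATP8, was lower in the knockdown. The sum of both members over the 8 other listed mRNAs was 0.708, 0.532 and 0.543 in knockdown libraries 1, 2 and 3, and 0.752, 0.833 and 0.933 in control libraries 1, 2 and 3. The groups do not overlap, and the log2 difference was -0.50 (exact 2-sided permutation p = 0.1, the smallest value possible, adjusted 0.2). With the length trend removed it was -1.22. The pair made up 41.4%, 34.7% and 35.2% of the summed value of the 10 mRNAs in the knockdown, and 42.9%, 45.5% and 48.3% in the control. The share of MT-ATP8 was 29.5% ± 4.68 in the knockdown and 38.5% ± 3.94 in the control (SD, n = 3 each). That of MT-ATP6 was 7.60% ± 0.931 in the knockdown and 7.07% ± 1.27 in the control. Of the 2 members, only MT-ATP8 thus had a lower mean share in the knockdown. Outside the pair the mean share was also lower for MT-CO3 (7.45% in the knockdown, 8.36% in the control), where the groups did not overlap. It was lower for MT-ND4 too (7.85% and 8.61%), with overlap, and higher for the rest. For each member alone these shares overlapped between the groups.

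Gene by gene, the members differed in how they stood to the 8 other mRNAs. Where libraries of the groups did not overlap, MT-ATP8 was lower in the knockdown relative to 5 of the 8, namely MT-CO1, MT-CO2, MT-ND5, MT-ND6 and MT-CYB, and it overlapped for MT-ND2, MT-CO3 and MT-ND4. MT-ATP6 was lower relative to MT-CO1 and MT-ND5, higher relative to MT-ND4, and overlapped for the other 5. Of the 28 ratios between any 2 of the 8 other mRNAs, 60.7% did not overlap, so such separation was common among mitochondrial mRNAs. The ratio of MT-ATP6 to MT-ND5, a complex I subunit, was 0.891, 0.909 and 0.935 in knockdown libraries 1, 2 and 3, and 1.24, 1.17 and 1.14 in control libraries 1, 2 and 3. The ratio of MT-ATP8 to MT-ND5 was 4.77, 2.95 and 3.12 in the knockdown, and 5.18, 6.22 and 8.40 in the control.

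**Figure D3:**
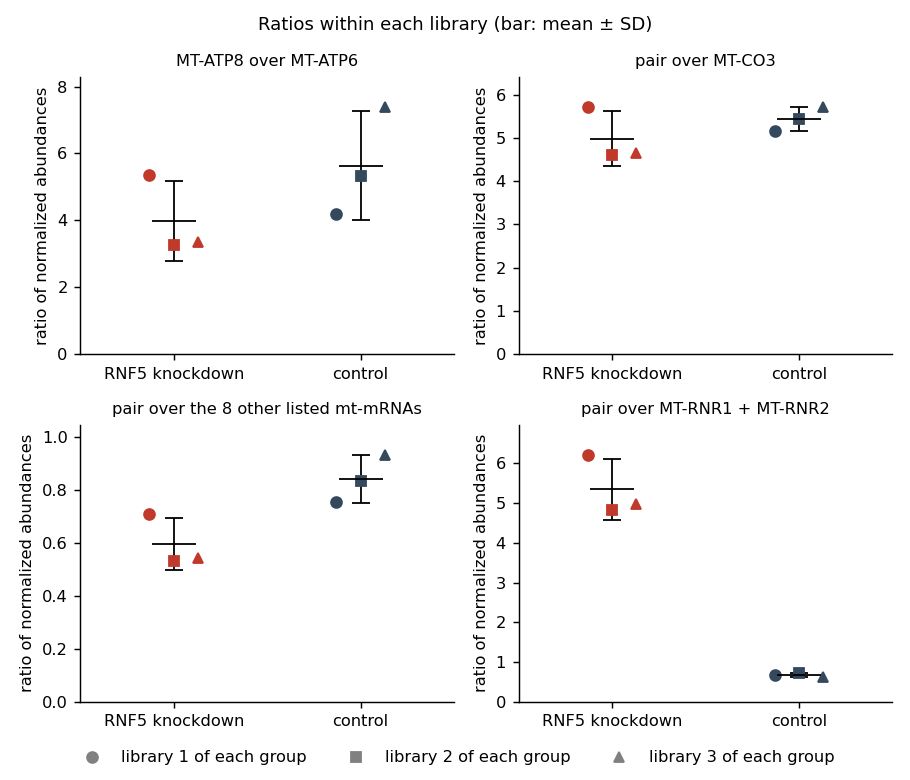
Ratios of normalized abundances within each library (linear axes from 0) for MT-ATP8 over MT-ATP6 and for the sum of the pair over MT-CO3, over the 8 other listed mitochondrial mRNAs and over both ribosomal RNAs, with points for libraries and bars for mean ± SD. The groups overlap in the upper panels and are apart in the lower ones, with 4.84 to 6.22 in the knockdown against 0.612 to 0.720 in the control for the ribosomal RNAs.

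Of the 4 ratios, that to the mitochondrial ribosomal RNAs had the largest difference. These RNAs, MT-RNR1 (12S) and MT-RNR2 (16S), are transcribed from the same strand upstream of the pair. The sum of the pair over both was 6.22, 4.84 and 4.98 in knockdown libraries 1, 2 and 3, and 0.673, 0.720 and 0.612 in control libraries 1, 2 and 3. The groups are far apart, with a log2 difference of 2.99 (7.97-fold, exact 2-sided permutation p = 0.1, the smallest value possible, adjusted 0.2). It was 2.15 with the length trend removed. The opposite calls of mRNAs and ribosomal RNAs were part of the authors' selection, so the direction of this ratio is a description. MT-RNR2 fell by 1.76 on the log2 scale and MT-RNR1 by 1.55.

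All 10 listed mitochondrial mRNAs of the 13 on the genome were called higher, beside 55.7% of all genes tested. Among them MT-ATP8 had the smallest log2 fold change (1.17) and MT-ND5 the largest (2.05), and the median was 1.72. MT-ATP6 (1.67) lay just below that median. MT-CO3 (1.40) and MT-ND4 (1.43) lay between the members. MT-ND6, the only listed mRNA from the other strand, had 1.93. In the authors' deposited table MT-ATP8 was likewise the lowest of the 10 (1.04).

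**Figure D4:**
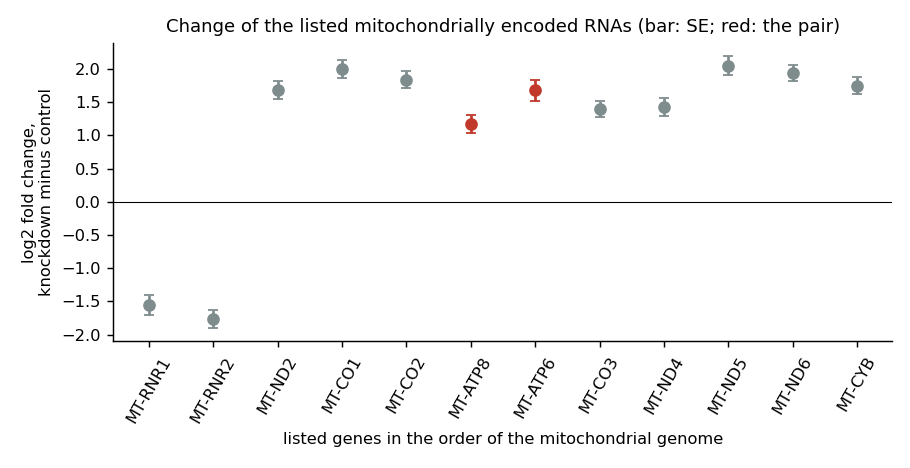
Log2 fold change, knockdown minus control, of the 12 listed mitochondrial mRNAs and ribosomal RNAs in genome order, with bars for the SE from limma and the pair in red. MT-ATP8 (1.17) is the lowest of the 10 mRNAs, MT-ATP6 (1.67) lies near their median, and both ribosomal RNAs are below 0.

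The nuclear copy MTATP6P1 was the only listed gene named as a copy of either member. It had 274.64, 469.27 and 361.78 in knockdown libraries 1, 2 and 3, and 108.29, 106.77 and 146.20 in control libraries 1, 2 and 3. All knockdown values lie above all control values, with a log2 fold change of 1.59 (SE 0.21, limma adjusted p = 4.35e-05). Its level was 5.32%, 6.97% and 5.66% of that of MT-ATP6 in the knockdown, and 4.84%, 5.63% and 9.11% in the control, and these shares overlap. Its reads can come from MT-ATP6 transcripts, given the shared windows described above, and the part of such reads in either value was not tested. Unlike MT-ATP6, it was highest of the controls in control library 3. All 7 listed genes named as nuclear copies of mitochondrial genes were called higher, beside 55.7% of all genes tested, and the authors had listed all 7 as higher.

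Few nuclear genes of ATP synthase were listed, as for protein-coding genes in general, of which the list held 6.36% of those in GENCODE 29. None of 18 nuclear genes of its subunits and inhibitor was listed. Nor was any of 35 genes of mitochondrial transcription, RNA processing and RNA stability, or any of 14 genes of mitochondrial translation and membrane insertion. Of 5 assembly factors 1 was listed, FMC1, whose yeast counterpart assists the assembly of the F1 part. It had 20.20, 14.63 and 19.21 in knockdown libraries 1, 2 and 3, and 21.96, 27.98 and 48.00 in control libraries 1, 2 and 3. The groups do not overlap but nearly touch, and control library 3 stands well above the rest. FMC1 fell by 0.76 on the log2 scale (SE 0.26, limma adjusted p = 0.0140), the opposite direction to the pair. Without knockdown library 2 the call was lost (log2 fold change -0.63, limma adjusted p = 0.0651), and without control library 3 the change was -0.45 (limma adjusted p = 0.0309).

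The profiles most like those of the members over the 6 libraries did not include the other member. Likeness was the root mean square difference of log2 profiles, each centred on its own mean, among 597 other tested genes with a mean of at least 5. Nearest to MT-ATP8 was H2BC13, a histone H2B gene (0.11), followed by FMNL1-DT (0.14), TRAF3IP3 (0.14), an unnamed gene (ENSG00000290833, 0.15) and DEPTOR-AS1 (0.16). H2BC13 had 10.11, 10.08 and 7.87 in the knockdown and 2.94, 3.36 and 3.87 in the control, so it too was lowest of the controls in library 1 and highest in library 3. MT-CO3 was the nearest mitochondrial gene, at place 16 (0.20), and MT-ATP6 stood at place 221 (0.42).

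The 5 genes nearest to MT-ATP6 were 3 without a gene name, among them ENSG00000269954 (0.08), together with ST3GAL6-AS1 (0.09) and the co-stimulatory receptor gene CD28 (0.10). CD28 had 18.25, 22.18 and 19.57 in the knockdown and 7.09, 6.54 and 5.14 in the control. Like MT-ATP6 it was lowest in library 1 of the knockdown and in library 3 of the control. MT-CYB was the nearest mitochondrial gene, at place 19 (0.13), and MT-ATP8 stood at place 284. These distances are descriptions, since all profiles share the same libraries and the same group difference.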

How the data were processed

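Per the labels, total RNA was harvested with Trizol, and library preparation was by Illumina protocols. Bowtie 0.12.2 and hg19 are named in the submitters' processing notes, without the step. Per the file headers, the authors deposited for each gene a normalized signal in each library, group means, a fold ratio of knockdown over control with its log2, and both a raw and an adjusted p-value. No source used here states the test behind them. Every listed gene had an absolute log2 value of at least 1.00 and an adjusted p of at most 0.0499 in the authors' deposited table.

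The signal values are not counts, so limma 3.58.1 (R 4.3.3), with its trend option, was fitted on log2(value + 1) of genes that reached 1 in 3 or more libraries. These were 1290 genes, both members included, and 587 were not tested. Group was the only term, and a gene was called at a Benjamini-Hochberg adjusted p under 0.05. The fit was checked on simulated data in which only some genes changed. All listed genes were called changed by the authors, so that check does not cover a list selected in this way. Ratios within a library, which no scaling of a library can move, had exact 2-sided permutation tests. Lengths were those of the longest GENCODE 29 transcript, found by gene ID for 1720 genes (91.6%). GENCODE 29 is on GRCh38, and its coordinates were not converted to hg19.

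The members, lists and tests were chosen with earlier results of these data known. The genes named were the members, the other listed mitochondrially encoded genes, RNF5, the listed genes of the 4 nuclear lists, copies named MTATP, listed cell type markers and the 5 genes nearest in profile to each member. MT-TA and the ribosomal RNA gene at 0 were named after their values were seen. Alternatives covered the pseudocount, the filter, the trend, a rescaling to the authors' fold changes, the length trend, a replicate block and leaving out each library.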

Additional observations from a re-analysis of the deposited data

How the results depend on the processing

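MT-ATP6 remained called higher under all 13 alternatives, with log2 fold changes of 1.26 to 1.79. MT-ATP8 did so under 12 (1.0002 to 1.27) and was not called with the length trend removed (0.11). That trend includes the difference between the groups, and the cause was not tested. Dividing the knockdown values by the median offset of 0.17 from the authors' log2 fold changes gave 1.0002 for MT-ATP8 and 1.50 for MT-ATP6, and the median of all genes tested became 0.61 in place of 0.73. The genes called numbered 1260, and 591 of the 598 tested when a mean of at least 5 was asked for, where fewer genes enter. The 4 ratios kept their sign under all alternatives, and the p of no ratio can pass 0.05 in this design. For FMC1 and MTATP6P1 the same alternatives were added after seeing the data.

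Same-numbered libraries of the groups did not deviate together over the tested genes (correlations of -0.16, -0.07 and -0.08). Whether they were prepared in pairs is not known, and these correlations cannot show it. A replicate block cannot move a fold change or a mean log2 ratio here, since both groups hold the same replicate numbers. MT-ATP8 and MT-ATP6 thus stayed at 1.17 and 1.67, and the ratio of the pair at -0.50 (exact sign-flip p = 0.5). With the block, the SE rose from 0.14 to 0.18 for MT-ATP8 and from 0.16 to 0.20 for MT-ATP6, and 1272 genes were called. Depth is unknown, so no counting error can be given.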
